A study of Homo sapiens with 6 samples.

Results

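The CC chemokine genes of TPC1 cells are described here, from CCL2 to CCL28. A set of 9 ligand genes was chosen by symbol (CCL2, CCL3, CCL3L3, CCL4, CCL5, CCL7, CCL20, CCL26 and CCL28), and 8 of them were found among the 21173 genes of the count table. CCL7 was not analysed here. TPC1 is an established human cell line from a papillary thyroid cancer, known for its RET rearrangement. RNA was sequenced from 3 libraries of TPC1 cells that overexpress the transcription factor TFCP2L1 and from 3 libraries of TPC1 cells with a vector, whose genotype is given as WT. All 6 libraries come from this 1 line, and the labels name neither the promoter of the construct nor whether replicates were separate cultures, so the p-values below reflect the scatter among these 6 libraries, and that scatter may be technical.

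Chemokines are small secreted proteins that guide leukocytes along a gradient, and the CC class is named for a pair of adjacent cysteines near the N terminus. They bind G protein-coupled receptors of the CCR family on leukocytes and are held on cell surfaces by proteoglycans. Transcription of many of them in epithelial and tumour cells is known to be switched on by NF-kB downstream of IL-1 and TNF, and CCL5 is also known as a target of interferon regulatory factors. CCL3 and CCL5 bind CCR1, CCL5 also binds CCR3, CCL20 binds CCR6, CCL2 binds CCR2, CCL26 binds CCR3, and CCL28 binds CCR10 and CCR3.

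The overexpressed gene TFCP2L1 had 13578, 13885 and 12333 reads in the TFCP2L1 libraries and 0, 0 and 1 read in the vector libraries. Library totals ran from 38213520 to 38987434 reads in TFCP2L1 cells and from 37928516 to 38249193 in vector cells. Mitochondrially encoded genes took 5.19% to 7.59% of reads in TFCP2L1 cells and 5.13% to 6.72% in vector cells, with the highest shares in TFCP2L1 replicate 3 and vector replicate 2. Of 12 thyroid and epithelial marker genes 9 were analysed here: PAX8, the thyroid lineage factor, was at 478 ± 47.4 and 544 ± 24.4 CPM (read counts scaled to library size; SD, n = 3) in TFCP2L1 and vector cells, thyroglobulin (TG) at 1.03 ± 0.182 and 1.10 ± 0.361 CPM, and E-cadherin (CDH1) had 1 read in all. The keratin gene KRT7 was the 1 of 6 tested markers called, a count near the 11.6% of all tested genes called in either direction. It was at 4.69 ± 1.16 CPM in TFCP2L1 cells and 9.15 ± 0.992 CPM in vector cells (log2 fold change -0.96 ± 0.18, edgeR adjusted p = 0.00202). The keratin gene KRT18 was at 156 and 165 CPM in TFCP2L1 and vector cells (edgeR adjusted p = 0.612). KRT8 was at 26.4 and 27.1 CPM (edgeR adjusted p = 0.860), and neither was called. KRT19 (8, 5 and 1 reads in TFCP2L1 libraries against 0, 0 and 1) and EPCAM (2, 3 and 1 against 20, 1 and 1) were rare. The part of KRT7 in the chemokine results was not tested. Leukocytes are the main source of CCL3, CCL4 and CCL5 in tissue, so their markers were read too: the pan-leukocyte gene PTPRC had 0, 3 and 0 reads in TFCP2L1 libraries and 7, 1 and 0 in vector libraries, and CD163 had 0, 6 and 0 reads against 0, 0 and 0. CD14 had 5, 8 and 4 against 16, 13 and 7 reads, LYZ 0, 4 and 0 against 5, 3 and 6, and KLRD1 0, 4 and 0 against 0, 0 and 0. Of 15 leukocyte markers 9 were in the table and 4 were tested. Of these 4, 1 rose and 1 fell, against 4.63% and 6.94% of all tested genes. CSF1R (1.03 ± 0.327 and 1.26 ± 0.0402 CPM in TFCP2L1 and vector cells, edgeR adjusted p = 0.660) and ITGAM (0.385 ± 0.220 and 0.460 ± 0.207 CPM, 0.835) were not called. The 9 markers summed to 101 to 126 CPM in TFCP2L1 cells and 71.6 to 87.5 CPM in vector cells. Most of it was CD68, a lysosomal protein gene, which rose to 106 ± 14.2 CPM in TFCP2L1 cells, against 68.8 ± 6.06 CPM in vector cells (edgeR adjusted p = 0.000423). The integrin gene ITGAX fell to 2.41 ± 0.498 CPM in TFCP2L1 cells, against 7.49 ± 1.90 CPM in vector cells (edgeR adjusted p = 9.19e-05), and the part of these markers in the chemokine results was not tested.

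The sequences shown first are those of the most abundant ligand of vector cells and its near-copy. CCL3 lies on chromosome 17 of GRCh38, 36088256 to 36090169 on the minus strand, and CCL3L3 at 36194869 to 36196758 on the same strand, where GENCODE v29 names the gene CCL3L1. The coding sequences of the GENCODE transcripts (276 bases in CCL3 and 279 in CCL3L3) are printed to show how little separates the copies; capitals mark the bases that differ or are present in only 1 copy.
CCL3: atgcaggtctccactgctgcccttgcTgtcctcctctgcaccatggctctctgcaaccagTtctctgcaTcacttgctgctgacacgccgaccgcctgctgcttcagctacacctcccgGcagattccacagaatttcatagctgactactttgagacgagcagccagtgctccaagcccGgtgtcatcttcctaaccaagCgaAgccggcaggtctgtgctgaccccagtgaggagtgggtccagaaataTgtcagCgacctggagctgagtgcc
CCL3L3: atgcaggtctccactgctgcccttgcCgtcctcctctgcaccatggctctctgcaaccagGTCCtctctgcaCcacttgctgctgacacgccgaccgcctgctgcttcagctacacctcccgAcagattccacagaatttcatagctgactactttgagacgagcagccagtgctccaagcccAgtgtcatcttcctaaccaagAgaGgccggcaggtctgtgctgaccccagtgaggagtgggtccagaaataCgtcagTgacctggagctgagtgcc
They differed by 9 mismatches and a gap of 3 bases in 279 aligned columns, an identity of 95.7%. The whole transcripts, of 778 and 784 bases, were 95.4% identical, with a longest identical run of 83 bases. Of the 50-base stretches of the CCL3 transcript 9.88% occur unchanged in CCL3L3, and of the 100-base stretches 0%, so a long read crosses at least 1 difference, while a short read need not. Neither the read length nor the treatment of ambiguous reads is stated, and the 2 genes are therefore reported singly and as a sum.

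The promoters are shown because CCL3, CCL3L3 and CCL20 had the lowest fold changes of the 7 genes that passed the filter on low counts. Each line gives the 250 bases before the RefSeq start site (GRCh38.p14), CCL3 at chr17:36090144-36090393 and CCL3L3 at chr17:36196759-36197008 on the minus strand, and CCL20 at chr2:227813592-227813841 on the plus strand. Capitals mark matches, on either strand, to a loose form of the NF-kB site, GGG and CC with 5 free bases between them. For CCL3 the first of its 3 RefSeq windows is shown, and another of them holds 1 match.
CCL3: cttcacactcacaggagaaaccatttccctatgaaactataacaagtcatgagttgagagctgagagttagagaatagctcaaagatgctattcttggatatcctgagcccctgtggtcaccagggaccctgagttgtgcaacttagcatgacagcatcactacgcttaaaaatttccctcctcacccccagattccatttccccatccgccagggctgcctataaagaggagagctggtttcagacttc
CCL3L3: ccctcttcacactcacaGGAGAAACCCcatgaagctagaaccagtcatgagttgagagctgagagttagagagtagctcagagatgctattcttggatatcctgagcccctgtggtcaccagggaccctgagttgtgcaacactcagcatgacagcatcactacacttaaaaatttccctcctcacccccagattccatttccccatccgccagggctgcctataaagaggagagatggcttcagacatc
CCL20: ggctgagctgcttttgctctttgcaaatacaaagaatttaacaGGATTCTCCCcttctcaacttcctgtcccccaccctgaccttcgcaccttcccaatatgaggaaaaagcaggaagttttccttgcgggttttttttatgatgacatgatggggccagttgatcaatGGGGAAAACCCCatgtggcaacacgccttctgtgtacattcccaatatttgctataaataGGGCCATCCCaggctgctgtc
The 250 bases of CCL3 and CCL3L3 were 91.0% identical, and where CCL3L3 has its match the letters are not complete in CCL3. In CCL20 there were 7 matches at 3 places, since the central run and the one nearest the start site match on both strands and the central matches overlap. These letters are common: 58.7% of 35116 RefSeq windows of 300 bases (250 before and 50 after a start site) hold at least 1 match, so a match here is a description of the sequence. The letters of the AP-1 site TGANTCA (7.71% of windows), the interferon-stimulated element (GAAA, 2 free bases, GAAA; 3.57%) and the STAT6 site (TTC, 4 free bases, GAA; 6.44%) were not found in the windows of CCL3, CCL3L3, CCL20, CCL26 or CCL28. The letters bound by the CP2 family, to which TFCP2L1 belongs (CNNG, 6 free bases, CNNG), matched in at least 1 window of each of these 5 genes and in 74.0% of all windows. CCL7, whose expression was not analysed here, went the other way, with an AP-1 match at position -51 from its start site and no match to the other letters. Of the 9 genes 6 had a window in this table, all but CCL2, CCL4 and CCL5.

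CC chemokine transcripts were lower in TFCP2L1 cells for 5 of the 7 genes that could be tested. By edgeR's quasi-likelihood test, with p adjusted over all 14431 tested genes, CCL3, CCL3L3, CCL5, CCL20 and CCL28 fell, 0 rose, and CCL2 and CCL26 were not called. Of all tested genes 6.94% were called lower and 4.63% higher. The median log2 fold change of the 7 genes was -1.83, against 0.00 for all tested genes. The members were chosen with earlier results of these data known, so this count and median are descriptions and no support for an excess. In a culture, fewer cells that express a gene and less RNA per cell cannot be told apart. CCL28 passed the filter on low counts through the vector libraries, where it was high, so its part in this count and median was favoured by the filter, and CCL4 did not pass.

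**Figure D1:**
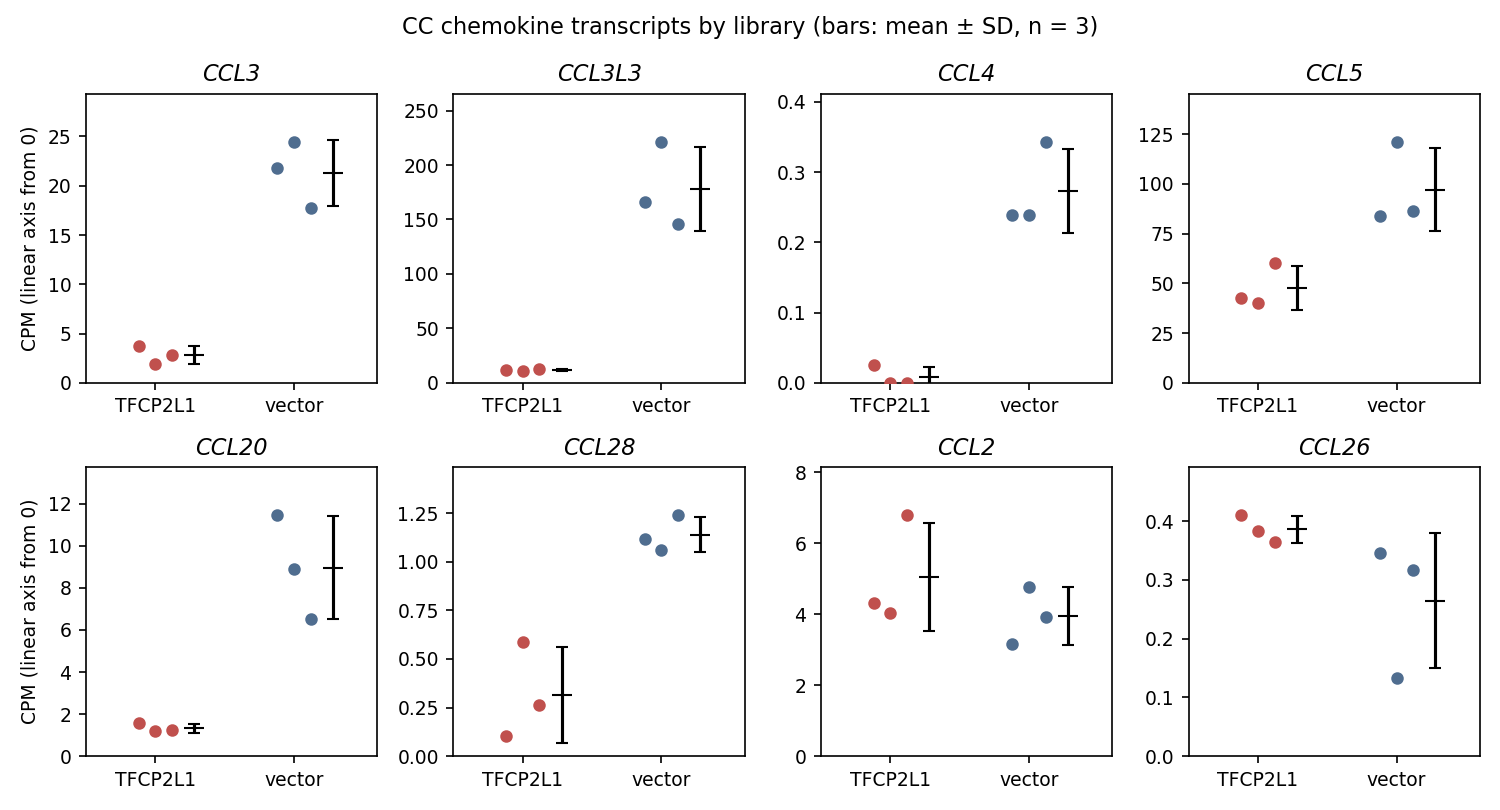
Each panel shows 1 CC chemokine gene, with CPM on a linear axis from 0, a point for each library of TFCP2L1 and vector cells, and the mean ± SD (n = 3) beside the points. The groups do not overlap for CCL3, CCL3L3, CCL4, CCL5, CCL20 and CCL28, all lower in TFCP2L1 cells, nor for CCL26, which is higher there, and they overlap for CCL2.

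The genes of the macrophage inflammatory protein group come first. CCL3L3, which encodes the MIP-1-alpha variant LD78-beta, was at 11.6, 11.2 and 12.5 CPM in TFCP2L1 libraries and 166, 221 and 146 CPM in vector libraries. The highest TFCP2L1 library was far below the lowest vector library, and vector replicate 2 stood above the other vector libraries. The mean was 11.7 ± 0.683 CPM in TFCP2L1 cells and 178 ± 38.7 CPM in vector cells (SD, n = 3), a log2 fold change of -3.92 ± 0.15 (SE; edgeR adjusted p = 7.12e-09) or a level 15.1-fold lower. Only 4 of the 14431 tested genes had a lower fold change.

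CCL3, the gene of MIP-1-alpha itself, was at 3.72, 1.91 and 2.82 CPM in TFCP2L1 libraries and 21.8, 24.4 and 17.7 CPM in vector libraries. The groups were again apart, with a log2 fold change of -2.92 ± 0.20 (edgeR adjusted p = 2.49e-07), 7.56-fold lower. Summed, CCL3 and CCL3L3 were at 15.3, 13.1 and 15.3 CPM in TFCP2L1 libraries and 188, 245 and 164 CPM in vector libraries, a log2 fold change of -3.77 ± 0.15 (edgeR adjusted p = 1.65e-08). The fall of the pair therefore did not depend on how reads were split between the copies. GENCODE v29 places antisense genes over 74.6% of CCL3 exon bases and 23.3% of CCL3L3 exon bases, and as no strand setting is stated for the counting, their reads cannot be told apart from those of the chemokines.

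Reads of the pair were divided differently, as the unlike fold changes of CCL3 and CCL3L3 already implied. CCL3 took 24.3%, 14.6% and 18.4% of the pair's reads in TFCP2L1 libraries and 11.6%, 9.95% and 10.8% in vector libraries, where CCL3L3 made up the rest. The lowest TFCP2L1 share, with an exact 95% binomial interval of 11.7% to 18%, was above the highest vector share but its interval overlapped that one's, 10.9% to 12.4%. The shares averaged 19.1% ± 4.89 in TFCP2L1 cells and 10.8% ± 0.824 in vector cells (SD, n = 3), with p = 0.1 in an exact two-sided permutation test, which cannot go lower with 3 libraries a group. Intervals here cover counting error only. As the fold changes already implied the shift in shares, the test adds no support.

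CCL4, the gene of MIP-1-beta, lies beside CCL3 (chromosome 17, 36103590 to 36105621, plus strand) and was rare in all libraries. It had 1, 0 and 0 reads in TFCP2L1 libraries and 9, 9 and 13 reads in vector libraries. The groups were apart, and TFCP2L1 cells had 0.0319 times the reads of vector cells per library total (exact 95% limits from counting alone, 0.000784 and 0.192). CCL4 failed the filter on low counts, so the main test gave no value. In edgeR without that filter it had a log2 fold change of -4.54 ± 1.46 (adjusted p = 0.0238 over 21173 genes). This brings the genes called lower to 6, while DESeq2 filtered it out of its adjustment. Without the filter edgeR gave far smaller p-values at like fold changes (CCL3L3 adjusted p = 1.37e-301, against 7.12e-09 with it). The CCL4 call is therefore not firm.

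CCL5, also called RANTES (chromosome 17, 35871491 to 35880793, minus strand), attracts T cells, monocytes and eosinophils. It was at 42.5, 40.2 and 60.5 CPM in TFCP2L1 libraries and 83.7, 121 and 86.1 CPM in vector libraries. TFCP2L1 replicate 3 and vector replicate 2 were the highest of their groups, and the groups did not overlap. CCL5 fell to 47.7 ± 11.1 CPM in TFCP2L1 cells, against 96.9 ± 20.8 CPM in vector cells, a log2 fold change of -1.02 ± 0.20 (edgeR adjusted p = 0.0215), 2.03-fold lower. CCL5 was no longer called when TFCP2L1 replicate 1 (adjusted p = 0.0571) or TFCP2L1 replicate 2 (0.0629) was left out, and was still called without vector replicate 2 (0.00353) and without TFCP2L1 replicate 3 (0.000815). Those 2 high libraries also had the highest mitochondrial shares, 7.59% in TFCP2L1 replicate 3 and 6.72% in vector replicate 2, and the part of this in the CCL5 values was not tested.

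Among the tested CC chemokine genes, CCL20 was the strongest fall outside chromosome 17. Its protein, also called LARC or MIP-3-alpha, draws CCR6-bearing dendritic cells and lymphocytes to mucosal and inflamed epithelium. The gene (chromosome 2, 227805739 to 227817564, plus strand), whose promoter is printed above, was at 1.56, 1.17 and 1.23 CPM in TFCP2L1 libraries and 11.4, 8.89 and 6.54 CPM in vector libraries. All 3 TFCP2L1 libraries lay close together and well below the vector libraries, which were more spread. The mean was 1.32 ± 0.211 CPM in TFCP2L1 cells and 8.96 ± 2.46 CPM in vector cells (SD, n = 3), a log2 fold change of -2.76 ± 0.23 (edgeR adjusted p = 6.25e-07), 6.77-fold lower.

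CCL28, a mucosal chemokine of epithelia that attracts plasma cells, was low in all libraries. The gene (chromosome 5, 43376645 to 43412391, minus strand) had 4, 23 and 10 reads in TFCP2L1 libraries and 42, 40 and 47 reads in vector libraries. The TFCP2L1 libraries varied more than the vector libraries and stayed below them. In CPM the means were 0.317 ± 0.247 in TFCP2L1 cells and 1.14 ± 0.0905 in vector cells, a log2 fold change of -1.83 ± 0.53 (edgeR adjusted p = 0.0342). This call was the least firm: the adjusted p was 0.115 and 0.0514 when TFCP2L1 replicate 1 or 3 was left out, and 0.0995, 0.0617 and 0.127 when vector replicate 1, 2 or 3 was left out. On the log2(FPKM + 1) scale, which compresses low genes, limma gave a log2 fold change of -0.25 (adjusted p = 0.0295).

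CCL2, also called MCP-1 and known as a monocyte attractant, did not follow the others. The gene (chromosome 17, 34255218 to 34257203, plus strand) was at 4.33, 4.03 and 6.78 CPM in TFCP2L1 libraries and 3.16, 4.78 and 3.93 CPM in vector libraries. The groups overlapped, and TFCP2L1 replicate 3 was the highest library. The mean was 5.05 ± 1.51 CPM in TFCP2L1 cells and 3.96 ± 0.809 CPM in vector cells, a log2 fold change of 0.35 ± 0.23 (edgeR adjusted p = 0.363).

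CCL26, known as eotaxin-3 and as a target of IL-4 and IL-13 signalling, had few reads. The gene (chromosome 7, 75769533 to 75789896, minus strand) had 16, 15 and 14 reads in TFCP2L1 libraries and 13, 5 and 12 in vector libraries. The lowest TFCP2L1 library was just above the highest vector library, but the log2 fold change of 0.54 ± 0.57 was not called (edgeR adjusted p = 0.612). CCL26 reached the cutoff of the low-count filter in 3 TFCP2L1 and 2 vector libraries, and CCL28 in 2 and 3. Groups apart in this direction were seen for 14.4% of all tested genes, and groups apart with TFCP2L1 below vector for 15.6%, against 5 of the 7 tested chemokines.

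**Figure D2:**
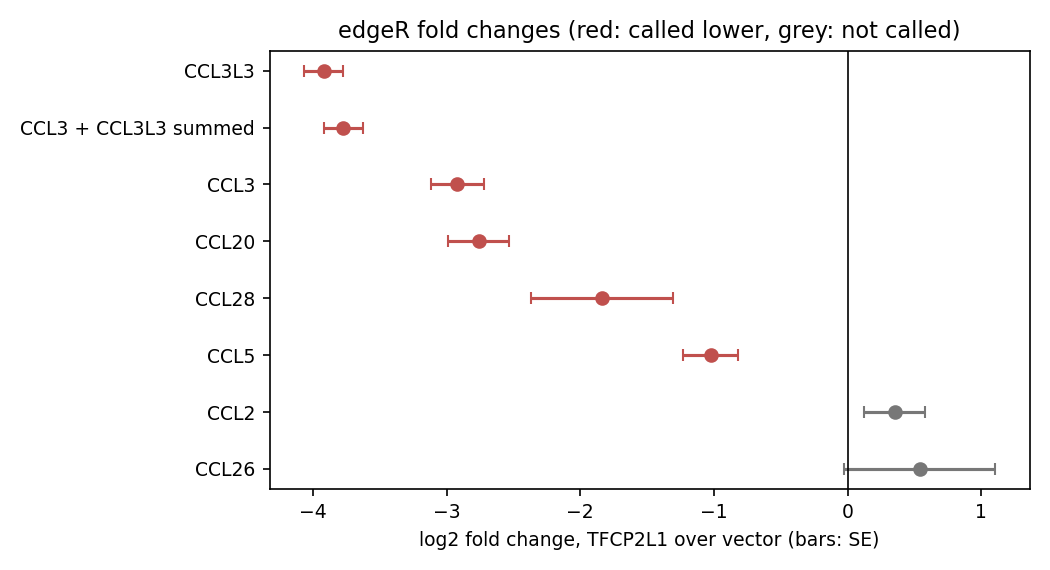
Log2 fold changes of TFCP2L1 over vector cells from edgeR are plotted for the 7 tested CC chemokine genes and for the sum of CCL3 and CCL3L3, with bars for the SE. Values run from -3.92 (CCL3L3) to 0.54 (CCL26), with CCL5 (-1.02) nearest to 0 among the genes called lower.

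Because levels were compared between genes, FPKM, which divide counts by gene length and library size, were used for the order within a group. In TFCP2L1 cells the order was CCL5 (37.0 ± 8.42 FPKM), CCL3L3 (15.1 ± 0.834), CCL2 (6.87 ± 2.02), CCL3 (3.65 ± 1.19), CCL20 (1.6 ± 0.269), CCL26 (0.563 ± 0.0374), CCL28 (0.0783 ± 0.0609) and CCL4 (0.0132 ± 0.0228). In vector cells it was CCL3L3 (224 ± 47.7 FPKM), CCL5 (73.9 ± 15.5), CCL3 (27.0 ± 4.18), CCL20 (10.6 ± 2.92), CCL2 (5.28 ± 1.06), CCL4 (0.411 ± 0.0911), CCL26 (0.379 ± 0.166) and CCL28 (0.277 ± 0.0232), all as mean ± SD of 3 libraries. Neighbours in these orders did not overlap between libraries, apart from CCL28 and CCL4 in TFCP2L1 cells and the last 3 genes in vector cells. By mean FPKM, CCL3L3 ranked 198 of all 21173 genes in vector cells and 3677 in TFCP2L1 cells, and CCL5 ranked 712 and 1590.

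The summed FPKM of the 8 genes was 61.7, 55.5 and 77.5 in TFCP2L1 libraries and 321, 418 and 288 in vector libraries. CCL5 supplied 57.1% of the summed mean FPKM in TFCP2L1 cells and 21.6% in vector cells, and CCL3L3 supplied 23.3% and 65.6%. CCL2 supplied 10.6% in TFCP2L1 cells and 1.54% in vector cells at levels that overlapped. Ratios within a library do not depend on library scaling, and 3 of them were chosen after the values were seen. CCL3L3 over CCL5 was 0.450, 0.461 and 0.343 in TFCP2L1 libraries and 3.28, 3.03 and 2.81 in vector libraries. CCL5 over CCL2 was 5.60, 5.69 and 5.08 in TFCP2L1 libraries and 15.1, 14.4 and 12.5 in vector libraries. CCL20 over CCL2 was 0.321, 0.259 and 0.161 in TFCP2L1 libraries and 3.22, 1.65 and 1.48 in vector libraries. For each ratio the groups were apart, which the unlike fold changes of these genes already implied. The exact two-sided permutation test of each log2 ratio gave p = 0.1, the smallest possible, and 0.1 after adjustment over the 3 ratios. With the ratios chosen in this way, the test adds no support.

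**Figure D3:**
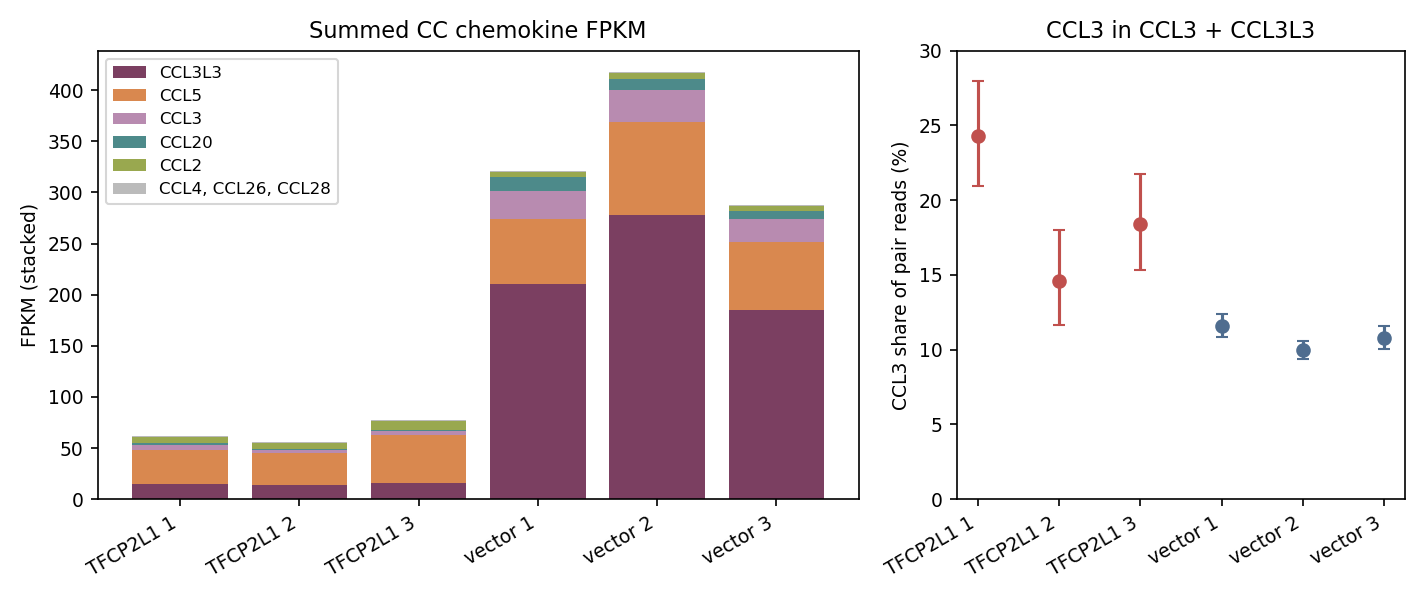
The left panel stacks the FPKM of the CC chemokine genes in each library, with CCL3L3 at the bottom of each bar, and the sums run from 55.5 to 77.5 in TFCP2L1 libraries and from 288 to 418 in vector libraries. The right panel shows the CCL3 share of CCL3 and CCL3L3 reads with exact 95% binomial intervals, 14.6% to 24.3% in TFCP2L1 libraries and 9.95% to 11.6% in vector libraries.

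The remaining ligands of the family were near the limit of detection. CCL17, a CCR4 ligand, had 2, 0 and 11 reads in TFCP2L1 libraries and 12, 4 and 3 in vector libraries. CCL4L2, the copy of CCL4, had 1, 5 and 0 against 1, 0 and 2 reads, CCL24 had 0 against 3 reads in all and CCL27 had 1 against 0. These groups overlapped. On chromosome 17 the CC chemokine genes lie in 2 clusters of 6 and 10 genes of the family. The nearest tested genes around the cluster that holds CCL5, CCL3, CCL4 and CCL3L3 were TAF15, 6876 bases before it (log2 fold change 0.17 ± 0.10, edgeR adjusted p = 0.355), and ZNHIT3, 273751 bases after it (-0.15 ± 0.11, 0.432). Around the cluster that starts with CCL2 they were MYO1D, 1378041 bases before it (-0.46 ± 0.42, 0.550), and ZNF830, 598299 bases after it (-0.17 ± 0.13, 0.484). MYO1D was low, at 0.601 ± 0.135 CPM in TFCP2L1 cells and 0.830 ± 0.0746 CPM in vector cells. None of these 4 neighbours was called, and those of the CCL2 cluster are too far away to describe its surroundings closely.

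Receptors for these ligands were scarcely expressed. Of 15 receptors and scavengers 12 were in the table and 2 could be tested, and neither was called. CCR10, the receptor of CCL28, was at 0.741 ± 0.422 CPM in TFCP2L1 cells and 0.777 ± 0.0815 CPM in vector cells (edgeR adjusted p = 0.954). ACKR3, a scavenger of CXC ligands, was at 0.376 ± 0.307 and 0.468 ± 0.155 CPM in TFCP2L1 and vector cells (0.813). CCR1 had 6, 1 and 0 reads in TFCP2L1 libraries and 0, 4 and 4 in vector libraries, and CCR6, the CCL20 receptor, had 0, 0 and 0 against 6, 0 and 0. CCRL2, an atypical receptor, had 10, 31 and 8 reads in TFCP2L1 libraries and 5, 11 and 3 in vector libraries, groups that overlapped.

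Genes that induce or carry the inflammatory signal fell in part. Of 22 tested inducing cytokines and receptors 9 fell and 1 rose, against 6.94% and 4.63% of all tested genes. Their median log2 fold change was -0.13. The IL-1 receptor gene IL1R1 fell to 44.8 ± 2.22 CPM in TFCP2L1 cells, against 115 ± 5.08 CPM in vector cells (edgeR adjusted p = 1.17e-08). IL6 fell by 1.59 ± 0.18 on the log2 scale (0.00142), IL1A by 1.35 ± 0.24 (0.00147) and IL36G, at under 1 CPM in the mean of either group, by 3.25 ± 0.65 (0.00351). IL36G had 8, 2 and 1 reads in TFCP2L1 libraries and 32, 48 and 25 in vector libraries, and passed the filter only through the vector libraries, so its fall and its place among the 9 were favoured by the filter. Of 15 NF-kB subunits and inhibitors 4 fell, against 6.94% of all tested genes, and 1 rose, near the 4.63% of all tested genes. Their median was -0.09. The members that fell were NFKBIA and 3 others known as feedback genes or IkB proteins of the pathway, NFKBIZ (-0.67 ± 0.07, edgeR adjusted p = 9.51e-06), TNFAIP3 (-0.66 ± 0.07, 1.60e-05) and NFKBIE (-0.40 ± 0.10, 0.0190). NFKBIA fell by 0.32 ± 0.08 (0.0146), a call lost without TFCP2L1 replicate 1 or vector replicate 1 or 2, up to 0.0729. BCL3 rose by 0.35 ± 0.10 (0.0373). The NFKBIE call was lost without TFCP2L1 replicate 1 or 2 or vector replicate 1, with an adjusted p up to 0.130, and that of BCL3 without TFCP2L1 replicate 1 or 3 or vector replicate 1 or 3, up to 0.183. The subunit genes RELA (0.10 ± 0.10, 0.602) and NFKB1 (-0.07 ± 0.08, 0.664) were not called.

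Other regulators did not share 1 direction. Of 11 tested interferon factors and sensors 5 rose and 0 fell, against 4.63% and 6.94% of all tested genes. Their median log2 fold change was 0.31. IRF7, a regulator known to act on interferon genes and on CCL5, rose to 24.1 ± 3.29 CPM in TFCP2L1 cells, against 5.09 ± 0.515 CPM in vector cells (edgeR adjusted p = 1.86e-08). IFIH1, a sensor of double-stranded RNA, rose by 0.55 ± 0.07 (9.19e-05). IFNL1, an interferon gene, rose by 3.08 ± 0.85 (0.0270), a call lost without TFCP2L1 replicate 1 or 2 or vector replicate 1 or 2, up to 0.113. It had 18, 36 and 10 reads in TFCP2L1 libraries and 0, 1 and 6 in vector libraries, and passed the filter only through the TFCP2L1 libraries, where it was high, so its rise and its place among the 5 were favoured by the filter. Of 9 AP-1 factors 1 was called, near the 11.6% of all tested genes called in either direction: FOSL1 rose (0.41 ± 0.11, 0.0281, and up to 0.128 without vector replicate 1 or 3), and FOSB was at 0.36 ± 0.12 (0.0703). Of 7 tested genes of IL-4 and IL-13 signalling, which is known to induce CCL26, 2 rose and 2 fell, against 4.63% and 6.94% of all tested genes. The decoy receptor gene IL13RA2 rose to 39.3 ± 2.02 CPM in TFCP2L1 cells, against 13.8 ± 1.42 CPM in vector cells (7.83e-08), and IL13RA1 fell by 0.40 ± 0.09 (0.00550). SOCS1 rose by 0.64 ± 0.17 (0.0233) and JAK1 fell by 0.34 ± 0.09 (0.0178). The SOCS1 call was lost without TFCP2L1 replicate 1 or 3 or vector replicate 1 or 3, up to 0.112, and that of JAK1 without TFCP2L1 replicate 1 or vector replicate 1 or 3, up to 0.0889.

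Genes that act on chemokine RNA or protein follow. Of 11 tested regulators of inflammatory mRNA decay, most of them AU-rich element binding proteins, 1 fell, near the 6.94% of all tested genes called lower. This was ZC3H12A, an RNase known to cleave inflammatory transcripts at stem-loops (-0.79 ± 0.09, edgeR adjusted p = 3.16e-05), and ZFP36L1 was at -0.32 ± 0.11 (0.0639). Of 13 tested chemokine proteases and proteoglycans 6 fell and 0 rose, against 6.94% and 4.63% of all tested genes. Their median log2 fold change was -0.26. DPP4, a protease known to trim the N terminus of CCL5 and other chemokines, fell to 74.8 ± 11.2 CPM in TFCP2L1 cells, against 276 ± 10.7 CPM in vector cells, a log2 fold change of -1.88 ± 0.10 (3.85e-09). CTSB (-0.79 ± 0.07, 2.28e-06), MMP2 (-0.50 ± 0.08, 0.000329) and the syndecan gene SDC4 (-0.50 ± 0.07, 0.000237) also fell.

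CXC and CX3C ligands moved both ways, with 3 of 8 tested genes lower and 3 higher, against 6.94% and 4.63% of all tested genes. Among the neutrophil attractants, CXCL1 (-1.35 ± 0.08), CXCL8 (-1.31 ± 0.08) and CXCL2 (-1.28 ± 0.08) fell, with edgeR adjusted p up to 1.68e-08, while CXCL3 rose by 0.56 ± 0.18 (0.0491). The CXCL3 call was lost when TFCP2L1 replicate 1 or 2 or vector replicate 1 or 3 was left out, up to 0.225. CXCL10, another interferon-induced ligand of CXCR3, rose by 0.99 ± 0.26 (0.0221), a call lost when TFCP2L1 replicate 2 or vector replicate 1 or 3 was left out, up to 0.108. CXCL11, which binds the same receptor, rose to 3.97 ± 0.624 CPM in TFCP2L1 cells, against 1.3 ± 0.506 CPM in vector cells (0.00108).

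**Figure D4:**
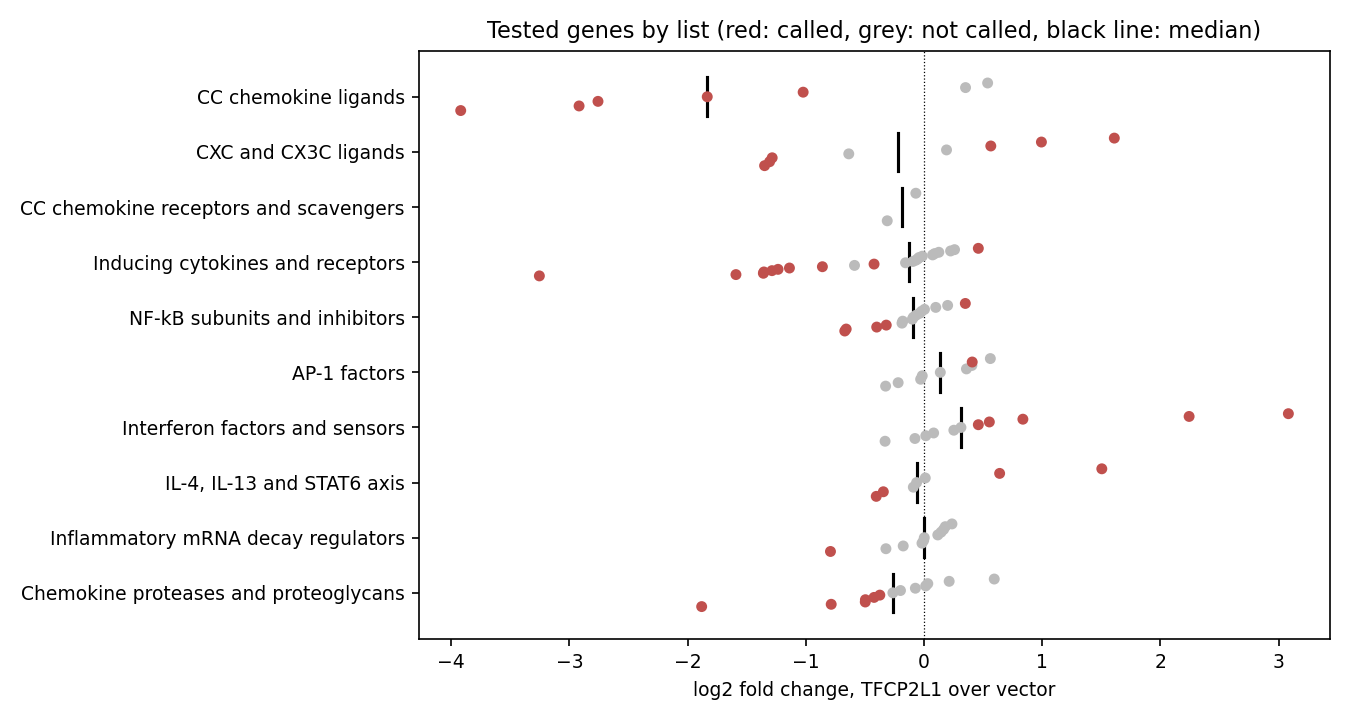
Log2 fold changes of TFCP2L1 over vector cells are shown for the tested genes of 10 lists, 1 row a list, with called genes in red, genes not called in grey and the median as a black line. The median of the CC chemokine ligands is -1.83, and those of the other lists lie between -0.26 and 0.31.

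The genes most like the most abundant ligands across the 6 libraries were named by Pearson's r of log2 CPM among 10584 genes of at least 5 CPM, chemokines left out. With CCL3L3 they were SERPINA1, the alpha-1 antitrypsin gene (r = 0.9992), RRAS (0.9987) and PLPP3 (0.9981). With CCL5 they included HMGA2 (0.9932) and LITAF (0.9922). The 6 points form 2 groups, so these values describe mainly the difference between the groups, and these 5 genes fell, by 0.33 (RRAS) to 1.2 (SERPINA1) on the log2 scale, with edgeR adjusted p up to 0.0380.

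**Figure D5:**
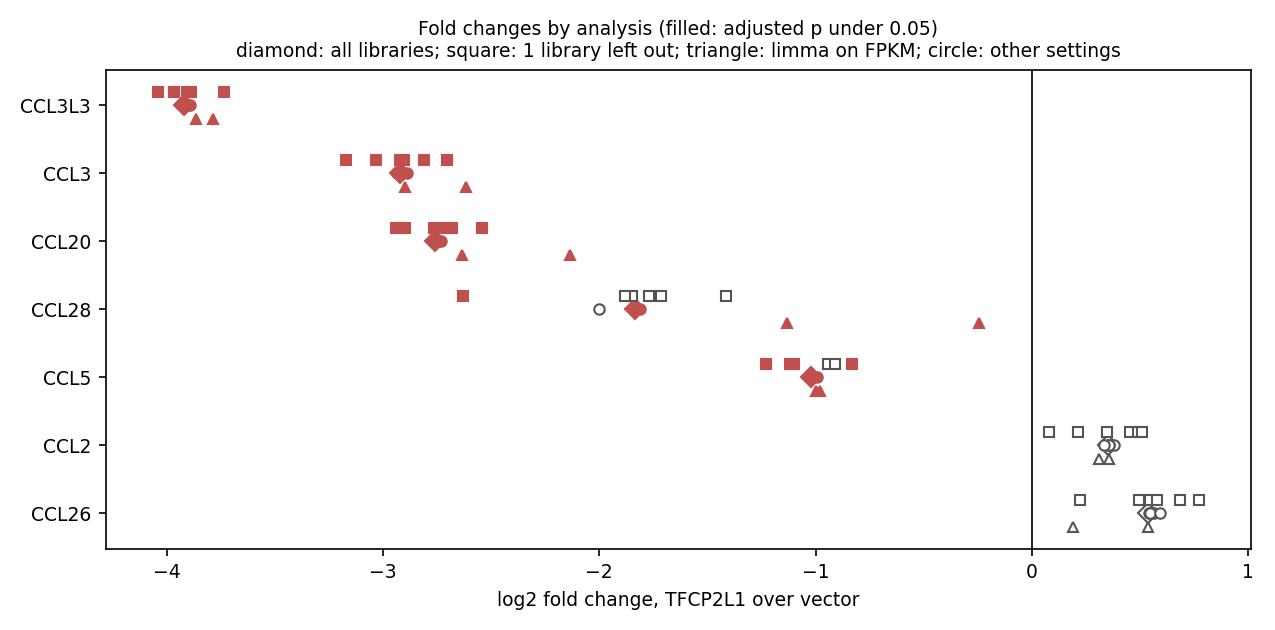
For each tested CC chemokine gene the log2 fold change of TFCP2L1 over vector cells is plotted under the main analysis (diamond), with 1 library left out (squares), with limma on FPKM (triangles) and under the other settings (circles), filled where the adjusted p is under 0.05. CCL3L3, CCL3 and CCL20 are filled throughout, CCL28 and CCL5 lose the call in some, and CCL2 and CCL26 are open throughout.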

How the data were processed

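RNA-seq libraries of TPC1 cells were analysed, 3 with TFCP2L1 overexpression and 3 with a vector. Per the labels' protocols, TRIzol was used for extraction and a VAHTS Universal kit for library construction. Tools listed per the submitters' processing notes are HISAT2, HTSeq and fastp, with the build GRCh38.p13. No strand setting is stated. The authors deposited raw read counts per gene and FPKM values made from those counts. The 6 columns were matched to samples by group and replicate number.

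Counts were tested with edgeR 4.0.16 (R 4.3.3): filterByExpr (14431 of 21173 genes), TMM scaling and a robust two-sided quasi-likelihood test over the 6 libraries. The threshold for a call was 0.05 after Benjamini-Hochberg adjustment. SE is the log2 fold change over the square root of F. CPM use TMM-scaled totals. On simulated counts the test recovered 26% of 1.3-fold changes, 68% of 1.5-fold, 78% of 2-fold and 94% of 4-fold. Of its 147 calls there 14 were false, so calls near 0.05 and genes not called are less firm. Replicates differed by more than sampling noise (chi-square per gene 7.49 to 42.4), so none was a copy.

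The members and gene lists were chosen with earlier results of these data known. Named genes were all members, up to 4 called genes of each list with the largest change (the 2 of smallest p where fewer than 2 were called), all tested receptors, the nearest tested neighbours on chromosome 17 and the 3 genes most correlated with each of the 2 most abundant members; RELA, NFKB1, NFKBIA, CXCL3, CXCL10, marker genes not called, rare ligands and receptors were added after their values were seen. Some genes that this rule names are not reported here. Of the marker lists, fibroblast genes had 1 of 4 tested called, FBLN1 (lower), endothelial genes 0 of 1 and thyroid and epithelial genes 1 of 6, KRT7 (lower). Lists this small cannot be told from the 11.6% of all tested genes called in either direction. Gene models came from GENCODE v29 on GRCh38 and promoters from RefSeq on GRCh38.p14. Alternatives were DESeq2 1.42.0, limma 3.58.1 on log2(FPKM + 1) and log2(FPKM + 0.1), other scalings, no filter, a replicate block and leaving out each library.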

Additional observations from a re-analysis of the deposited data

How the results depend on the processing

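Under 13 alternatives CCL3, CCL3L3, their sum and CCL20 were called lower each time, with log2 fold changes of -3.17 to -2.62 (CCL3), -4.04 to -3.73 (CCL3L3), -3.89 to -3.59 (sum) and -2.94 to -2.14 (CCL20). CCL2 (0.08 to 0.51) and CCL26 (0.19 to 0.77) were not called in any that gave an adjusted p, and DESeq2 gave none for CCL26. With 1 library left out, CCL5 ran from -1.23 to -0.83 (edgeR adjusted p 0.000815 to 0.0629) and CCL28 from -2.63 to -1.42 (0.0106 to 0.127). The 5 members called lower became 3 to 4, with 3 without TFCP2L1 replicate 1, and 0 were called higher. All genes called ran from 298 to 766 higher and 621 to 1106 lower, against 668 and 1002 with all libraries: 298 and 645 without vector replicate 1, and 313 and 621 without vector replicate 3.

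Same-numbered libraries did not deviate together (r = 0.07, -0.16 and -0.12). Between libraries of unlike number r ran from -0.108 to 0.22, highest for TFCP2L1 replicate 3 with vector replicate 2. With 3 libraries a group these values cannot exclude that same-numbered samples were handled together. With the replicate block 328 genes were higher and 649 lower, and CCL28 was at -2.003 (edgeR adjusted p = 0.0702). No other member's call changed with the block. CCL4 had too few reads for the alternatives that keep the filter, and none was run for CCL7. Low counts limit CCL4, CCL26 and CCL28 most.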
